A study of Mus musculus with 8 samples.

Results

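Chemokines are small secreted proteins that steer the movement of leukocytes and of some epithelial and stem cells, and their receptors are G protein-coupled proteins of the cell surface. Many ligands bind several receptors, and many receptors accept several ligands. Homeostatic chemokines such as Cxcl12, Cxcl14, Ccl21 and Ccl27 are made without inflammation and set where cells settle, while inflammatory chemokines such as Ccl2 or Cxcl1 are switched on by cytokines and tissue damage and draw in monocytes or neutrophils. In skin, keratinocytes, dermal fibroblasts, lymphatic vessels and resident macrophages all make chemokines.

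The transcripts described here are those of mouse genes whose symbols begin with Ccl, Cxcl, Ccr or Cxcr followed by a digit, together with Cx3cl1 and its receptor Cx3cr1. They are 57 of the 23146 genes in the count files, made up of 39 ligands and 18 receptors. Where a gene had several transcript rows, as 10 of these genes did, the row with the most counts stood for it.

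The source of the RNA was embryonic mouse epidermis, parted from the dermis at stage E15.5 or E17.5 (E, embryonic day). Control embryos carried floxed alleles of Nir, the gene Noc2l. Knockout embryos carried floxed Nir alleles and Krt14-Cre, a Cre recombinase under the promoter of keratin 14, which basal keratinocytes use. Cells in the preparation that neither use that promoter nor descend from cells that did keep the gene. Not given in the sources used here are the strain and whether control embryos carried Cre. Each of the 4 groups (E15.5 control, E15.5 knockout, E17.5 control and E17.5 knockout) had 2 libraries, which the labels number without saying whether they came from separate embryos, so the p-values speak only of the spread among these libraries, which may be technical.

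Over all transcript rows, library totals ran from 35720383 to 42494775 counts. With 1 row kept per named gene they ran from 25226357 to 28895657, and 17835 to 18092 genes were detected per library. Levels are given in CPM (counts divided by the scaled library total in units of 1e6). At E15.5 Noc2l itself measured 107 and 97.4 CPM in the controls and 95.6 and 91.6 in the knockout, and at E17.5 it measured 106 and 121 against 85.4 and 86.9. Its knockout libraries were below the controls at both stages, but the log2 difference passed the test only at E17.5 (-0.39 ± 0.10 SE, adjusted p = 0.0062 in edgeR; E15.5 -0.13 ± 0.10, adjusted p = 0.33). Which exons the floxed alleles remove is not given in the sources used here, so counts over the whole transcript are a weak check of the deletion. Markers of basal and suprabasal keratinocytes were present, and they fell in the knockout. All 7 basal markers and all 9 suprabasal markers were lower at both stages. Median log2 differences were -1.82 and -3.26 for the basal list and -3.80 and -5.25 for the suprabasal list. Markers of the periderm, the outer layer of embryonic epidermis, moved both ways. Of these, 5 of 7 rose and 2 fell at each stage, with medians of 2.99 and 3.64. Of all genes tested, 23.2% rose and 22.3% fell at E15.5, and 26.7% rose and 26.7% fell at E17.5 (adjusted p under 0.05 in edgeR). In RNA from whole tissue, fewer cells of a type and less RNA per cell cannot be told apart.

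Most chemokine ligands that could be tested were more abundant in the knockout epidermis. Of the 39 ligands 34 passed the filter on low counts, which was the same for all genes. A gene scarce in the controls could pass it through its knockout libraries alone. Ccl4, Ccl5, Ccl8, Ccl17, Ccl22, Cxcl1, Cxcl2, Cxcl5 and Cxcl11 did so, with at most 7 counts in any control library. All of them were called as risen at E17.5. Such genes raise the share called, here and in the counts below. At E15.5, 19 of the 34 ligands rose and 3 fell (adjusted p under 0.05 in edgeR), which is 64.7% of those tested. Of all 16342 genes tested 45.5% were called, 23.2% as risen and 22.3% as fallen. At E17.5, 24 ligands rose and 5 fell, or 85.3% of those tested, where 53.5% of all genes were called, 26.7% as risen and 26.7% as fallen. With a stricter filter (1 CPM in 2 libraries), 15 of 25 ligands rose and 3 fell at E15.5, and 18 rose and 4 fell at E17.5. Of 15094 genes, 3764 rose and 3509 fell at E15.5 under it, and 4294 rose and 4222 fell at E17.5. That filter, too, can be passed through the knockout libraries alone. With library totals as the only scaling, in place of the TMM factors used here, the split over all genes at E17.5 was 20.2% risen and 38.5% fallen and the median of all genes moved from -0.02 to -0.24, while the ligands still numbered 24 risen and 5 fallen. The median log2 fold change of the ligands was 1.28 at E15.5 and 1.80 at E17.5, and that of all genes was -0.005 and -0.023. Genes with no counts in the controls have lower bounds above the ligands' medians, so setting them to the bound could not move those medians and is no check of them. The Ccl21 copies share nearly all their sequence, and with Ccl21a alone standing for them 16 ligands rose and 3 fell of 31 at E15.5, and 21 rose and 5 fell at E17.5.

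Among the receptors Ccr4 and Cxcr4 fell at both stages, and Ccr1 and Ccr8 were among those that rose at both. Of 18 receptors 15 could be tested. At E15.5, 4 rose and 3 fell, a share of 46.7% that lies near the 45.5% of all genes, and at E17.5, 7 rose and 2 fell, a share of 60.0% beside 53.5% of all genes. Their median log2 fold change was 0.80 and 1.64.

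Across both roles, 21 genes were called as risen at both stages and 4 as fallen at both stages, namely Ccr4, Cxcr4, Cxcl14 and Cx3cl1. These are 42.9% and 8.16% of the 49 members tested, where 19.5% of all genes rose and 18% fell at both stages. The 21 count Ccl21a, Ccl21b, Ccl21c and Ccl21d apart, although these copies share nearly all their sequence. A further 9 passed as risen at E17.5 alone and 2, Ccl24 and Cx3cr1, at E15.5 alone. Ccl27a, Ccl28 and Cxcl13 passed as fallen at E17.5 alone, and Ccr10 at E15.5 alone. Ccl6 fell at E15.5 and rose at E17.5. Neither test was passed by 8 genes, which were Ccl19, Ccl25, Ccl27b, Cxcl17, Ccr9, Cxcr3, Cxcr5 and Cxcr6. These counts compare calls, and the difference between stages was tested separately.

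**Figure D1:**
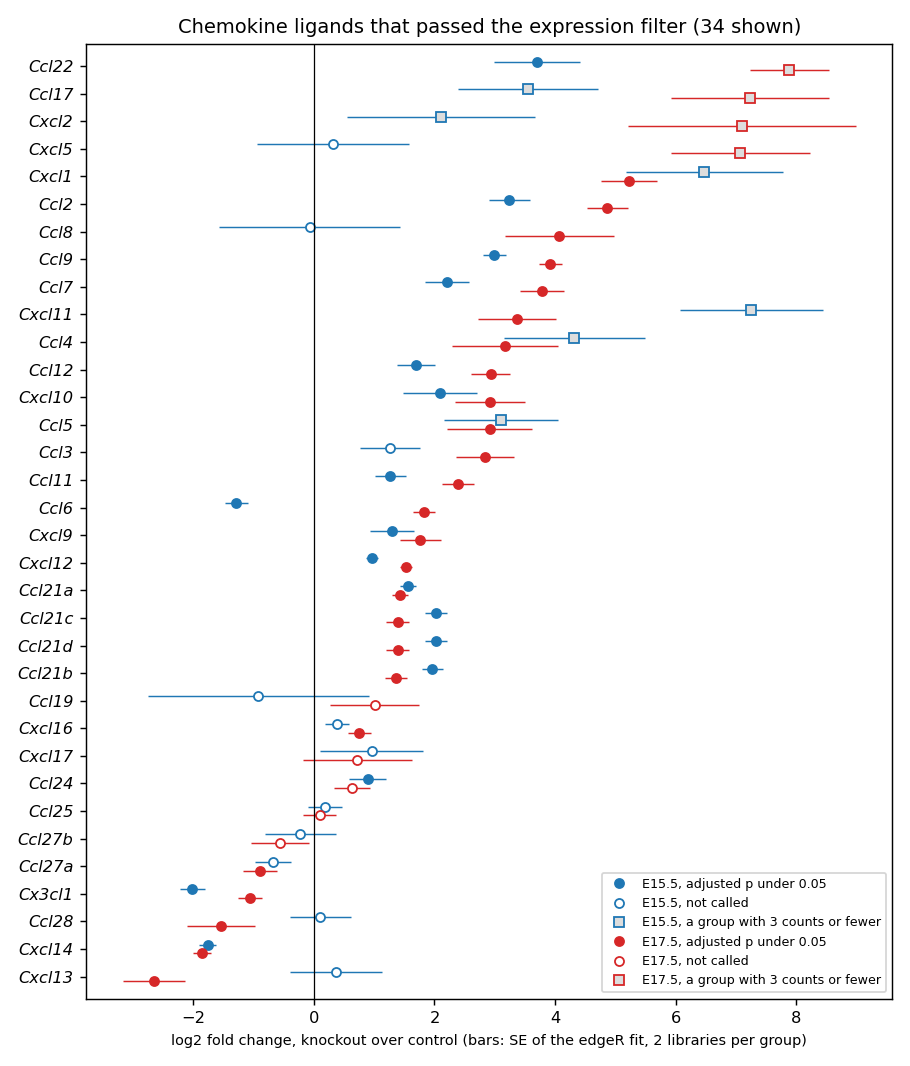
Fitted log2 fold change of knockout over control (x axis) for the 34 ligands tested (y axis), at E15.5 in blue and E17.5 in red, with bars of 1 SE from 2 libraries per group. Filled points had an adjusted p under 0.05, open circles did not, and squares mark comparisons in which a group held 3 counts or fewer in all, whose fitted position depends on the fit's prior count and has no fixed size. Most points lie to the right of 0, and Cxcl14 and Cx3cl1 lie to the left at both stages.

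Cxcl14, a chemokine made in quantity by resting epidermis, was the most abundant ligand in the control libraries and fell. It stood at 284 and 313 CPM in the E15.5 controls and at 77.8 and 98.0 in the E15.5 knockout libraries. At E17.5 it stood at 203 and 246 CPM in the controls and at 55.9 and 68.2 in the knockout libraries. Every knockout library was below every control library at its stage, and the log2 difference was -1.77 ± 0.15 at E15.5 (adjusted p = 3.2e-06) and -1.86 ± 0.15 at E17.5 (adjusted p = 1.4e-06).

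Cxcl12, the ligand of Cxcr4 made largely by stromal cells, moved the other way. It measured 79.0 and 76.0 CPM in the controls against 156 and 148 in the knockout libraries at E15.5, and 82.4 and 91.0 against 238 and 261 at E17.5. The groups did not overlap at either stage. The rise was 0.97 ± 0.10 on the log2 scale at E15.5 (adjusted p = 1.3e-05) and 1.52 ± 0.10 at E17.5 (adjusted p = 2.8e-07). Markers of dermal fibroblasts rose beside it: 11 of 11 were called as risen at E15.5 and 10 of 11 at E17.5, and their summed level went from 31400 to 33400 CPM in the E15.5 controls to 77600 to 96100 in the knockout libraries, and from 27200 to 31500 to 98400 to 104000 at E17.5. Blood endothelium markers were called as risen in 8 of 8 cases at both stages, with medians of 0.64 and 0.80. Of all genes tested, 23.2% rose at E15.5 and 26.7% at E17.5. The part of these cell types in the Cxcl12 result was not tested.

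Ccl21, which lymphatic endothelium displays to guide dendritic cells through the receptor Ccr7, rose in all its copies. Ccl21a measured 24.6 and 27.2 CPM in the controls against 67.4 and 85.1 in the knockout libraries at E15.5, and 21.2 and 19.1 against 51.9 and 56.0 at E17.5. Its log2 rise was 1.56 ± 0.13 at E15.5 (adjusted p = 3.6e-06) and 1.42 ± 0.13 at E17.5 (adjusted p = 5.1e-06), with no overlap of the groups. Ccl21b measured 7.21 and 5.76 against 23.0 and 27.7 CPM at E15.5, and 5.22 and 5.04 against 14.8 and 11.8 at E17.5. The rows of Ccl21c and Ccl21d held identical values, 7.32 and 6.15 against 23.7 and 31.1 CPM at E15.5 and 5.58 and 5.39 against 16.1 and 12.7 at E17.5, and reads cannot be assigned among these copies with certainty. All 6 lymphatic endothelial markers rose at both stages, beside 23.2% and 26.7% of all genes at E15.5 and E17.5. Their summed levels were 175 to 185 CPM in the controls and 410 to 421 in the knockout libraries at E15.5, and 134 to 159 against 428 to 488 at E17.5. The part of these vessels in the Ccl21 result was not tested.

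Ccl27a, a keratinocyte product that attracts T cells through Ccr10, was lower in the knockout libraries without overlap at either stage but passed the test at E17.5 alone. It measured 3.81 and 5.07 CPM against 3.22 and 2.36 at E15.5 (log2 -0.67 ± 0.30, adjusted p = 0.089) and 6.74 and 11.5 against 4.53 and 5.32 at E17.5 (log2 -0.89 ± 0.28, adjusted p = 0.018). The E17.5 call ended without E17.5 control library 2 (log2 -0.46, adjusted p = 0.23) and without E17.5 knockout library 1 (-0.80, adjusted p = 0.092). Its near copy Ccl27b stood between 0.264 and 0.979 CPM and passed no test. Ccl28, a mucosal ligand of the same receptor, fell by 1.55 ± 0.56 on the log2 scale at E17.5 (adjusted p = 0.037), a call that ended when any 1 of the 8 libraries was left out, with adjusted p-values from 0.051 to 0.17.

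Cx3cl1, a ligand tethered to the cell surface that binds Cx3cr1 on macrophages, fell. It measured 15.48 and 15.06 CPM in the controls against 4.55 and 2.99 in the knockout libraries at E15.5, and 11.6 and 9.70 against 5.33 and 4.89 at E17.5. Every knockout library lay below every control library. The log2 difference was -2.02 ± 0.21 (adjusted p = 1.6e-05) at E15.5 and -1.06 ± 0.21 (adjusted p = 0.0011) at E17.5.

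Of the ligands of Ccr2 and Ccr3, which call in monocytes and eosinophils, Ccl2, Ccl7, Ccl12 and Ccl11 rose at both stages, while Ccl24 passed only at E15.5. Ccl8, a neighbour of Ccl12 in the genome, passed only at E17.5. Ccl2, the principal monocyte attractant, measured 2.08 and 1.81 CPM in the controls against 12.0 and 24.8 in the knockout libraries at E15.5, and 1.92 and 1.67 against 43.7 and 61.2 at E17.5. Its knockout libraries were all above its controls, and those of E17.5 were above those of E15.5. The log2 rise was 3.24 ± 0.34 at E15.5 (adjusted p = 1.5e-05; 2.62 without E15.5 knockout library 2) and 4.87 ± 0.34 at E17.5 (adjusted p = 4.6e-07).

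Ccl7, which binds Ccr1, Ccr2 and Ccr3, measured 1.70 and 0.807 CPM against 4.52 and 7.07 at E15.5 and 1.01 and 1.32 against 12.7 and 19.7 at E17.5. Its log2 rise was 2.21 ± 0.37 (adjusted p = 5.3e-04; 2.84 without E15.5 control library 1) and 3.79 ± 0.36 (adjusted p = 5.8e-06). Ccl12, a mouse Ccr2 ligand, measured 3.89 and 2.80 CPM against 7.37 and 14.3 at E15.5 and 2.61 and 2.73 against 16.0 and 24.8 at E17.5, rises of 1.69 ± 0.32 (adjusted p = 0.0012) and 2.93 ± 0.33 (adjusted p = 1.9e-05). For both genes the knockout libraries were above the controls at each stage.

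Ccl11, or eotaxin, which attracts eosinophils through Ccr3, measured 4.34 and 4.76 CPM against 9.11 and 12.8 at E15.5 and 3.15 and 5.81 against 21.8 and 25.4 at E17.5. It rose by 1.27 ± 0.26 on the log2 scale (adjusted p = 0.0021) and by 2.39 ± 0.26 (adjusted p = 1.6e-05), again with no overlap. Ccl8 rose by 4.07 ± 0.90 at E17.5 (adjusted p = 0.0027), where its knockout libraries stood at 2.88 and 0.683 CPM and no other library exceeded 0.148 CPM; without E17.5 knockout library 1 the call ended (log2 2.67, adjusted p = 0.063). Another eotaxin, Ccl24, measured 2.15 and 1.65 CPM against 3.66 and 3.41 at E15.5 and 2.07 and 2.02 against 3.94 and 2.41 at E17.5. Its rise passed at E15.5 (0.89 ± 0.30, adjusted p = 0.032) and not at E17.5 (0.63 ± 0.30, adjusted p = 0.097), and the E15.5 call ended without any 1 of the 4 E15.5 libraries (adjusted p from 0.0503 to 0.17).

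Among the macrophage-associated ligands, Ccl9, which binds Ccr1, showed the smallest adjusted p of any ligand at both stages. It measured 2.42 and 1.57 CPM in the controls against 16.7 and 15.2 in the knockout libraries at E15.5, and 3.04 and 3.24 against 51.9 and 43.7 at E17.5. The log2 rise was 2.99 ± 0.20 (adjusted p = 4.5e-07) and 3.92 ± 0.19 (adjusted p = 2.1e-08), with a wide gap between the groups.

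Ccl6, the gene next to Ccl9 and another Ccr1 ligand, changed direction between the stages. It measured 14.7 and 20.3 CPM in the E15.5 controls and 8.07 and 6.26 in the E15.5 knockout libraries, a log2 difference of -1.29 ± 0.19 (adjusted p = 2.2e-04). At E17.5 it measured 8.99 and 7.64 CPM in the controls and 31.3 and 27.5 in the knockout libraries, a rise of 1.82 ± 0.19 (adjusted p = 1.0e-05). The knockout libraries lay below both controls at the earlier stage and above both at the later one.

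Ccl3, Ccl4 and Ccl5, inflammatory ligands that attract macrophages and T cells, were scarce. Ccl3 measured 0.226 and 0.538 CPM against 0.962 and 0.880 at E15.5 (log2 1.26 ± 0.50, adjusted p = 0.059) and 0.290 and 0.321 against 2.56 and 1.87 at E17.5 (2.84 ± 0.48, adjusted p = 4.3e-04). Ccl4 had 26 counts in the knockout libraries of E15.5 and 1 in the controls, a ratio of 24.6 with a 95% counting interval of 4.05 to 1010 (adjusted p = 0.011), and rose by 3.17 ± 0.88 on the log2 scale at E17.5 (adjusted p = 0.0097). Ccl5 had 20 counts against 2 at E15.5, a ratio of 9.47 (2.30 to 83.6, adjusted p = 0.020), and rose by 2.91 ± 0.70 at E17.5 (adjusted p = 0.0045). Counting intervals cover counting error only. Leaving out E15.5 control library 2 ended the E15.5 calls of Ccl4 (adjusted p = 0.08) and Ccl5 (adjusted p = 0.13), as did leaving out E15.5 knockout library 2 (0.11 and 0.08), and the Ccl5 call also ended without E15.5 knockout library 1 (0.057). The E17.5 call of Ccl4 ended without either control library (adjusted p = 0.051 and 0.062) or knockout library 2 (0.087).

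Ccl22 and Ccl17, the ligands of Ccr4 that activated dendritic cells and macrophages make, were nearly absent from the controls. Ccl22 measured 0 and 0.154 CPM in the controls against 1.11 and 0.985 in the knockout libraries at E15.5, and 0 and 0.0642 against 10.4 and 7.83 at E17.5. It rose by 3.70 ± 0.72 on the log2 scale at E15.5 (adjusted p = 0.0014), a size that was 2.73 without E15.5 control library 1 and 7.88 without control library 2, since library 1 held no count. At E17.5 it had 503 counts in the knockout libraries and 2 in the controls, a ratio of 268 with a counting interval of 73.7 to 2220 (adjusted p = 1.7e-06). Ccl17 had 15 counts in the knockout libraries of E15.5 and 1 in the controls, a ratio of 14.2 (2.19 to 598, adjusted p = 0.029), and 37 against 0 at E17.5, at least 13.1-fold higher when the control group is set at 3 counts (adjusted p = 9.4e-04). The E15.5 call of Ccl17 ended without any 1 of the 4 E15.5 libraries (adjusted p from 0.06 to 0.16) and without E17.5 knockout library 1 (0.052).

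The neutrophil attractants that act through Cxcr2 appeared in the knockout libraries, chiefly at E17.5. Cxcl1 measured 0 CPM in both E15.5 controls against 0.407 and 0.387 in the knockout libraries, and 0.254 and 0.128 against 5.48 and 8.98 at E17.5. With 22 counts against 0 it was at least 6.95-fold higher at E15.5 (adjusted p = 0.0022), and it rose by 5.23 ± 0.46 on the log2 scale at E17.5 (adjusted p = 6.1e-06). Cxcl5 had 160 counts in the E17.5 knockout libraries and 1 in the controls, a ratio of 170 (30.1 to 6760, adjusted p = 3.3e-04), and no E15.5 library exceeded 0.281 CPM. Cxcl2 had 34 counts in the E17.5 knockout libraries and 0 in the controls, at least 12.1-fold higher (adjusted p = 0.0090). Cxcl3 had 17 counts in all libraries together and was not tested.

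These genes lie in 1 cluster on chromosome 5, in the order Cxcl5, Cxcl3, Cxcl15, Cxcl1 and Cxcl2, and the 250 bases before the starts of Cxcl1, Cxcl2 and Cxcl3 each hold the same run of 11 bases, formed by overlapping matches to the kappaB consensus, the motif bound by NF-kappaB. They are shown together with the promoter of Cxcl10, which holds 2 separate runs, so that the shared run can be read beside a different arrangement. They were chosen with the calls known: Cxcl1 and Cxcl10 were called as risen at both stages, Cxcl2 only at E17.5, and Cxcl3 was not tested. The sequences are the upstream strand of each gene, 5′ to 3′, from RefSeq on GRCm38.p6, with kappaB matches in capitals. Cxcl1 is chr5:90890995-90891244 on the plus strand, Cxcl2 is chr5:90903649-90903898 on the plus strand, Cxcl3 is chr5:90785851-90786100 on the plus strand and Cxcl10 is chr5:92348890-92349139 on the minus strand.
Cxcl1: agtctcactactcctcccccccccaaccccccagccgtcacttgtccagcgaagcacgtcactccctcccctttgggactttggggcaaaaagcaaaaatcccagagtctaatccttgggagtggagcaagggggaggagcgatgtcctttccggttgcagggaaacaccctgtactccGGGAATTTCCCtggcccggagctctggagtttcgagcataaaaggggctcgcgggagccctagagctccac
Cxcl2: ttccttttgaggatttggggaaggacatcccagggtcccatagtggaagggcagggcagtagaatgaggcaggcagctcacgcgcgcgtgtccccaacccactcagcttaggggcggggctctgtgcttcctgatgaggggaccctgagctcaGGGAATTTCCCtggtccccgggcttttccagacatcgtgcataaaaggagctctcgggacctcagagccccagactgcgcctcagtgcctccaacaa
Cxcl3: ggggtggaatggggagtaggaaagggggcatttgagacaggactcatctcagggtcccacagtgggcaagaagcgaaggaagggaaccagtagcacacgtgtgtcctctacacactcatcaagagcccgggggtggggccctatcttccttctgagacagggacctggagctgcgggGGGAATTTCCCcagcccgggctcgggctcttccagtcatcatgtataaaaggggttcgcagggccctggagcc
Cxcl10: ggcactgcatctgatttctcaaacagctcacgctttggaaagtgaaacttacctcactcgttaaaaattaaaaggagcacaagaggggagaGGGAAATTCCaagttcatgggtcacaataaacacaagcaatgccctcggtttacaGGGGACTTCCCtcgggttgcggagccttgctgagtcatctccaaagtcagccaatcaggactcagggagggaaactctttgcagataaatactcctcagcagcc
Counted back from the gene's start, the first capital stands at position -71 in Cxcl1, -97 in Cxcl2 and -73 in Cxcl3, and the runs of Cxcl10 begin at -159 and -104. On either strand, a kappaB match was found in 9 of the 41 members with a promoter in the RefSeq table and in 7.01% of the 27025 promoters of all genes. By the E17.5 call, 6 of 20 risen members held one (Ccl9, Ccr1, Ccr3, Cxcl1, Cxcl2 and Cxcl10), as did 0 of 7 fallen members, 0 of 7 that passed no test and 3 of 7 too scarce to test (Ccl1, Ccl20 and Cxcl3). Other motifs searched on both strands were TGANTCA, the AP-1 site, in 4 members and 6.87% of all promoters, the interferon-stimulated response element in 3 members and 3.04%, and TATAAA in 10 members and 12.97%. A match is a stretch of letters, and binding was not measured.

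The Cxcr3 ligands Cxcl9, Cxcl10 and Cxcl11, which interferon induces and which attract T cells, rose at both stages from low levels. Cxcl9 measured 0.566 and 0.730 CPM against 1.67 and 1.51 at E15.5 and 1.01 and 0.835 against 3.47 and 2.84 at E17.5, rises of 1.29 ± 0.37 (adjusted p = 0.014) and 1.77 ± 0.34 (adjusted p = 9.6e-04) on the log2 scale. Cxcl10 measured 0.415 and 1.04 CPM against 1.92 and 4.26 at E15.5 and 0.507 and 1.28 against 3.98 and 9.85 at E17.5, rises of 2.09 ± 0.62 (adjusted p = 0.017) and 2.92 ± 0.58 (adjusted p = 0.0013). In both genes the groups did not overlap. The E15.5 calls ended without E15.5 control library 1 (Cxcl9 1.12, Cxcl10 1.58), that of Cxcl9 also without E15.5 knockout library 1 (1.21) and that of Cxcl10 without E15.5 knockout library 2 (1.40). Without control library 2 the Cxcl10 rise was 2.89 at E15.5 and 3.75 at E17.5, and without knockout library 2 it was 2.11 at E17.5. Cxcl11 had 38 counts in the knockout libraries of E15.5 and 0 in the controls, at least 12.0-fold higher (adjusted p = 6.2e-04), and rose by 3.37 ± 0.65 at E17.5 (adjusted p = 0.0014). Its exons share 41.7% of their bases with Gm2673 on the opposite strand. Without a stated strand setting the counts of the 2 genes cannot be told apart. The RefSeq record counted for Cxcl11 is of the non-coding class, so its counts say nothing of a protein.

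Cxcl16, a membrane-bound ligand of Cxcr6, measured 6.87 and 8.53 CPM against 8.74 and 11.3 at E15.5 (log2 0.38 ± 0.19, adjusted p = 0.13) and 10.3 and 7.96 against 15.4 and 15.3 at E17.5 (0.75 ± 0.19, adjusted p = 0.0057). The E17.5 call ended without E17.5 control library 2 (0.58, adjusted p = 0.055), and 18.3% of its exon bases overlap Zmynd15 on the opposite strand. Cxcl13, which guides B cells, stood at 1.78 and 2.38 CPM in the E17.5 controls and between 0.0755 and 0.395 CPM in the other 6 libraries. It fell by 2.66 ± 0.51 on the log2 scale at E17.5 (adjusted p = 0.0011). Ccl25 stood between 2.10 and 2.85 CPM in the 8 libraries, with log2 differences of 0.19 ± 0.28 and 0.09 ± 0.27 that passed neither test, and Ccl19 and Cxcl17 reached at most 0.539 and 0.598 CPM. The ligands too scarce to test were Ccl1 with 25 counts in all libraries, Cxcl15 with 16, Ccl20, a ligand of Ccr6 on Langerhans cell precursors, with 10 (0 to 4 per library), and Ccl26 with 0, beside Cxcl3.

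**Figure D2:**
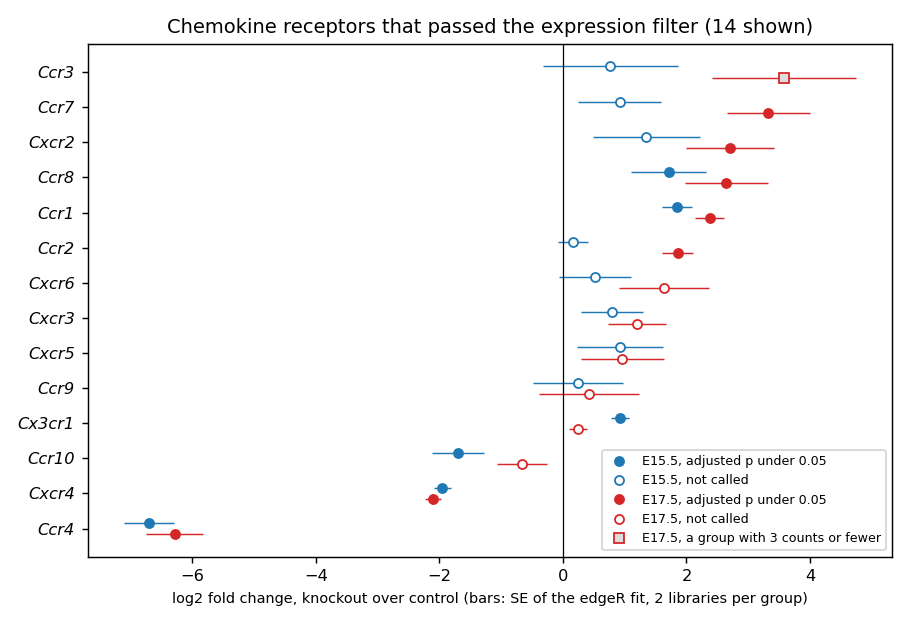
Fitted log2 fold change of knockout over control (x axis) for 14 of the 15 receptors tested (y axis), at E15.5 in blue and E17.5 in red, with bars of 1 SE from 2 libraries per group. Filled points had an adjusted p under 0.05, open circles did not, and the square marks a comparison in which a group held 3 counts or fewer. Ccr4 lies below -6 at both stages, Cxcr4 lies near -2, and most other receptors lie to the right of 0.

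Ccr4, the receptor of Ccl17 and Ccl22 known from skin-homing T cells, had the largest change of any receptor. It measured 13.6 CPM in both E15.5 controls against 0.0370 and 0.211 in the knockout libraries, and 6.92 and 5.10 against 0.0730 and 0.0719 at E17.5. The knockout libraries held from 1 to 6 counts each, where the controls held from 159 to 359. It fell by 6.70 ± 0.40 on the log2 scale at E15.5 (adjusted p = 2.3e-07), and the log2 difference was -6.29 ± 0.46 at E17.5 (adjusted p = 6.5e-07). Leaving out E15.5 knockout library 1 or 2 gave -5.98 or -8.36 at E15.5. Ccr4 lies on chromosome 9 at 114490316 to 114505476 (GRCm38), and its exons overlap no other gene.

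T cell markers moved both ways: of 7 tested, 2 rose and 1 fell at E15.5 and 2 rose and 2 fell at E17.5, with median log2 differences of 0.15 and 0.08, the latter -0.13 with library totals as the only scaling. The share called lay near that of all genes (45.5% and 53.5%) at both stages. Their summed level was 185 to 205 CPM in the E15.5 controls and 320 in both knockout libraries, and 208 to 270 against 347 to 402 at E17.5. Among the members of that list Lck, a kinase of T cell receptor signalling, fell (log2 -1.08 and -1.29), and Thy1, which fibroblasts also carry, rose by 0.77 and 0.70 and made up most of the sum. Of the scarce markers Cd3e rose at E15.5 (1.64, adjusted p = 0.044) and Cd2 at E17.5 (2.41, adjusted p = 0.016), while Cd3g fell at E17.5 from a mean of 1.49 to 0.018 CPM (adjusted p = 3.9e-04). The suprabasal keratinocyte markers that fell beside Ccr4 summed to 88900 to 94200 CPM in the E15.5 controls and 6170 to 6430 in the knockout libraries, and to 43400 to 57000 against 1180 to 1350 at E17.5. The part of the keratinocytes in the Ccr4 result was not tested.

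Cxcr4, the receptor of Cxcl12, was the most abundant receptor of the controls and fell. It measured 46.8 and 46.3 CPM against 10.7 and 13.3 at E15.5, and 64.2 and 69.9 against 16.9 and 14.3 at E17.5. The groups were far apart at both stages. The log2 difference was -1.95 ± 0.14 (adjusted p = 7.4e-07) and -2.10 ± 0.13 (adjusted p = 2.3e-07). Basal keratinocyte markers fell beside it, from 6920 to 7380 CPM summed in the E15.5 controls to 1950 to 2020, and from 7470 to 7490 to 1130 to 1170 at E17.5, while blood endothelium markers, another source of Cxcr4, rose. Their part in the Cxcr4 result was not tested.

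Ccr10, the receptor of Ccl27 and Ccl28, measured 3.55 and 3.38 CPM against 1.41 and 0.739 at E15.5 and 3.26 and 2.02 against 2.23 and 1.11 at E17.5. It fell at E15.5 (log2 -1.69 ± 0.42, adjusted p = 0.0067), a call that ended without E15.5 knockout library 2 (-1.30, adjusted p = 0.058). At E17.5 the groups overlapped and the difference of -0.66 ± 0.41 did not pass (adjusted p = 0.19). Without E17.5 knockout library 1 it was -1.26 (adjusted p = 0.062).

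Ccr1, a receptor of monocytes and macrophages that binds Ccl9, Ccl6 and Ccl7, rose. It measured 3.21 and 2.07 CPM against 8.99 and 10.1 at E15.5 and 3.70 and 2.57 against 17.2 and 15.3 at E17.5. Every knockout library lay above the range of the controls. The log2 rise was 1.85 ± 0.24 at E15.5 (adjusted p = 9.1e-05) and 2.38 ± 0.24 at E17.5 (adjusted p = 7.6e-06).

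Ccr2, the receptor of Ccl2 on inflammatory monocytes, measured 5.70 and 6.15 CPM against 6.63 and 6.65 at E15.5, a difference of 0.16 ± 0.24 that did not pass (adjusted p = 0.61). At E17.5 it measured 4.57 and 2.50 CPM in the controls against 12.7 and 12.8, a rise of 1.86 ± 0.24 (adjusted p = 6.6e-05). Cx3cr1, the receptor of Cx3cl1 on resident macrophages, had the reverse order of calls. It measured 15.9 and 13.3 CPM against 28.9 and 26.7 at E15.5 (log2 0.93 ± 0.15, adjusted p = 3.5e-04) and 18.4 and 15.7 against 21.9 and 18.5 at E17.5 (0.25 ± 0.15, adjusted p = 0.18), where the knockout libraries lay only just above the controls.

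Macrophage and myeloid markers rose beside these receptors and the myeloid ligands: 10 of 11 rose and 1 fell at both stages. Over all genes, 23.2% rose at E15.5 and 26.7% at E17.5. The median log2 change of the markers was 1.22 at E15.5 and 2.02 at E17.5, and Csf1r, the growth factor receptor of macrophages, rose by 1.23 and 1.62. The summed level was 679 to 685 CPM in the E15.5 controls and 814 to 853 in the knockout libraries, and 600 to 665 against 1460 to 1670 at E17.5. Neutrophil markers summed to 6.91 to 8.80 CPM against 18.1 to 23.8 at E15.5 and to 7.39 to 11.3 against 30.3 to 54.8 at E17.5. Of 5 tested, S100a8, S100a9 and Csf3r rose at both stages, none fell at E15.5 and 1, Camp, fell at E17.5. Whether S100a8 and S100a9 came from neutrophils was not tested. Mast cell markers rose in 5 of 7 cases at E15.5 and 7 of 7 at E17.5. Of the Langerhans cell list, Cd207, its defining marker, was at 0 in every library, and of 5 genes tested 4 rose at E17.5, while Epcam, which keratinocytes also express, fell at both stages. Erythroid markers rose in 8 of 8 cases at E15.5 and 7 of 8 at E17.5. The part of these cells in the chemokine results was not tested.

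Of the scarcer receptors, Ccr8 passed as risen at both stages, and Ccr7, Cxcr2 and Ccr3 at E17.5 alone. The values of Ccr7 and Cxcr2 that follow are those of E17.5. Ccr7, the Ccl21 receptor of dendritic cells, stood at 0.145 and 0.0642 CPM against 1.20 and 0.934 and rose by 3.33 ± 0.68 on the log2 scale (adjusted p = 0.0016; 3.96 without E17.5 control library 1). Cxcr2, the receptor of Cxcl1, Cxcl2 and Cxcl5 on neutrophils, stood at 0.362 and 0.257 CPM against 1.64 and 2.41 and rose by 2.70 ± 0.71 (adjusted p = 0.0077), a call that ended without E17.5 control library 2 (adjusted p = 0.057) or knockout library 2 (0.054). Their knockout libraries lay above both controls.

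Ccr3, the eotaxin receptor, had 25 counts against 2 at E17.5, a ratio of 13.3 (3.32 to 116, adjusted p = 0.023), and the call ended without E17.5 control library 1 (0.12), knockout library 1 (0.095) or knockout library 2 (0.055). Ccr8, a receptor of skin-resident T cells, measured 0.226 and 1.38 CPM against 1.81 and 3.45 at E15.5 and 0.435 and 0.289 against 2.67 and 1.87 at E17.5. It rose by 1.71 ± 0.61 (adjusted p = 0.038) and 2.64 ± 0.67 (adjusted p = 0.0061). The E15.5 call of Ccr8 ended without E15.5 control library 1 (0.93) or knockout library 2 (1.17), and its size was 3.51 without control library 2. Cxcr3 did not pass at E17.5 (1.20 ± 0.47, adjusted p = 0.051), nor did Cxcr5, Cxcr6 and Ccr9. Ccr1l1, Ccr6 (0 to 6 per library) and Cxcr1, with 10, 8 and 2 counts in all libraries, were not tested.

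Levels of different genes can be compared once counts are divided by transcript length. In CPM per kilobase of spliced transcript, and with Ccl21a alone standing for the Ccl21 copies, the 31 ligands summed to 272 and 295 in the controls and 280 and 343 in the knockout at E15.5, and to 226 and 262 against 429 and 501 at E17.5. Cxcl14 made up 57.0% and 58.4% of that sum in the E15.5 controls and 49.1% and 51.6% in the E17.5 controls. Its share in the knockout libraries was 15.2% and 15.6% at E15.5 and 7.13% and 7.45% at E17.5. The leading ligand of the knockout libraries was Cxcl12 or Ccl21a. Cxcl12 took 29.7% and 22.9% at E15.5 and 29.6% and 27.8% at E17.5, and Ccl21a took 27.7% and 28.5%, then 13.9% and 12.8%. Ccl2 stayed at or under 1.04% in the 4 controls and reached 12.5% or more in both E17.5 knockout libraries.

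Receptor transcripts shrank in sum and changed in make-up, although more receptors rose than fell (4 and 3 at E15.5, 7 and 2 at E17.5). The 15 receptors summed to 41.5 and 41.1 CPM per kilobase in the E15.5 controls against 23.8 and 25.8 in the knockout libraries, and 48.8 and 48.9 against 32.9 and 28.9 at E17.5. Cxcr4 made up 62.5% and 62.2% of the sum in the E15.5 controls and 72.8% and 79.1% in the E17.5 controls, and from 25.0% to 28.5% in the 4 knockout libraries. Cx3cr1 was ahead of Cxcr4 in E15.5 knockout library 1 (32.4% against 25.0%) and behind it in library 2 (27.6% against 28.5%). Ccr1 rose from between 1.78% and 2.73% of the sum in the controls to 18.4% and 18.8% in the E17.5 knockout libraries, and Ccr4 fell from 11.6% and 11.8% in the E15.5 controls to 0.0554% and 0.292%.

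**Figure D3:**
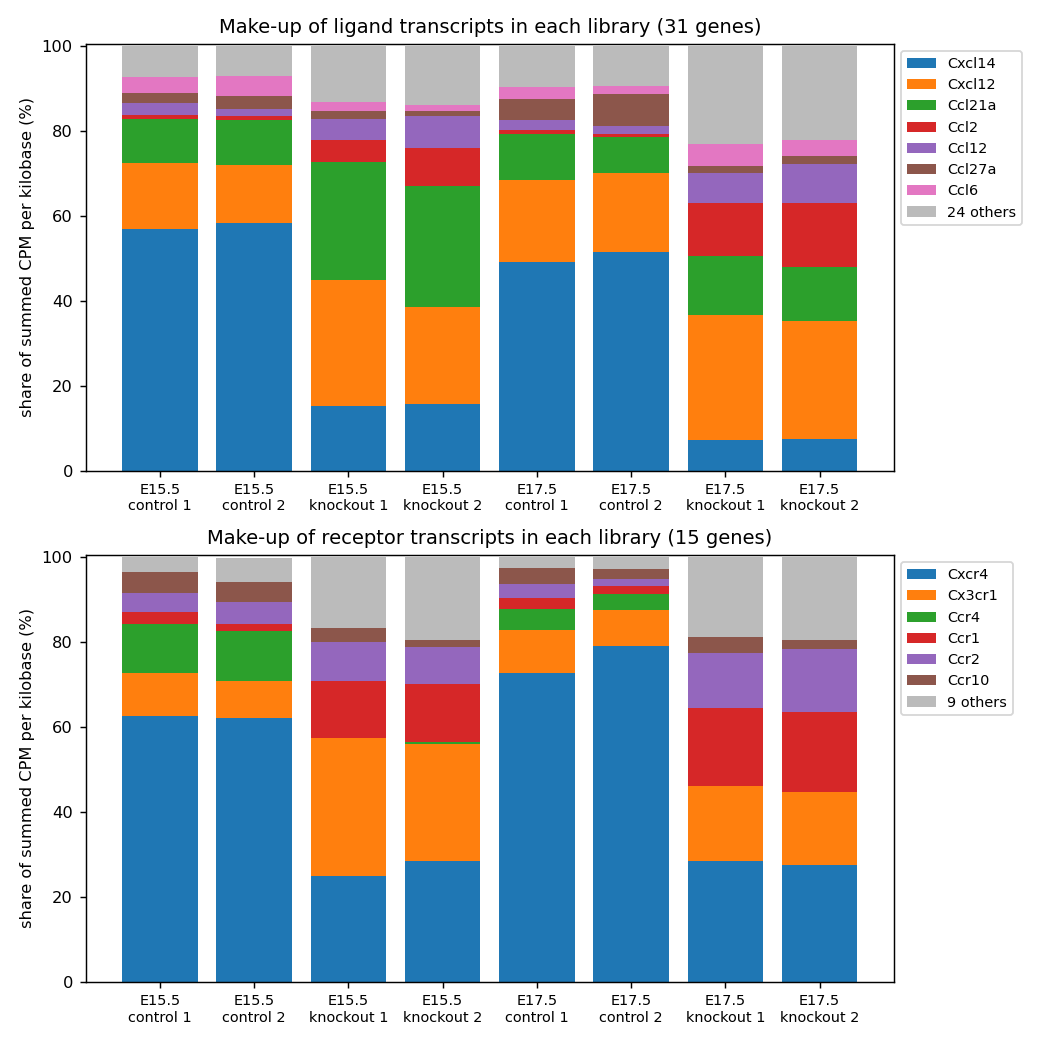
Share (%) of each gene in the summed CPM per kilobase of the 31 ligands (top) and 15 receptors (bottom), with a bar for each of the 8 libraries. Cxcl14 and Cxcr4 fill over 49% of the ligand and 62% of the receptor bars in the controls, and at most 15.6% and 28.5% in the knockout libraries.

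Ligands and the receptors they bind did not change together in every case. Cxcl12 rose while Cxcr4 fell, and Ccl22 and Ccl17 rose while Ccr4 fell, at both stages. Cx3cl1 fell at both stages while Cx3cr1 rose at E15.5. Ccl9 and Ccr1 rose together at both stages, Ccl2 rose at both stages and Ccr2 at E17.5, and Ccl21 rose at both stages and Ccr7 at E17.5.

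**Figure D4:**
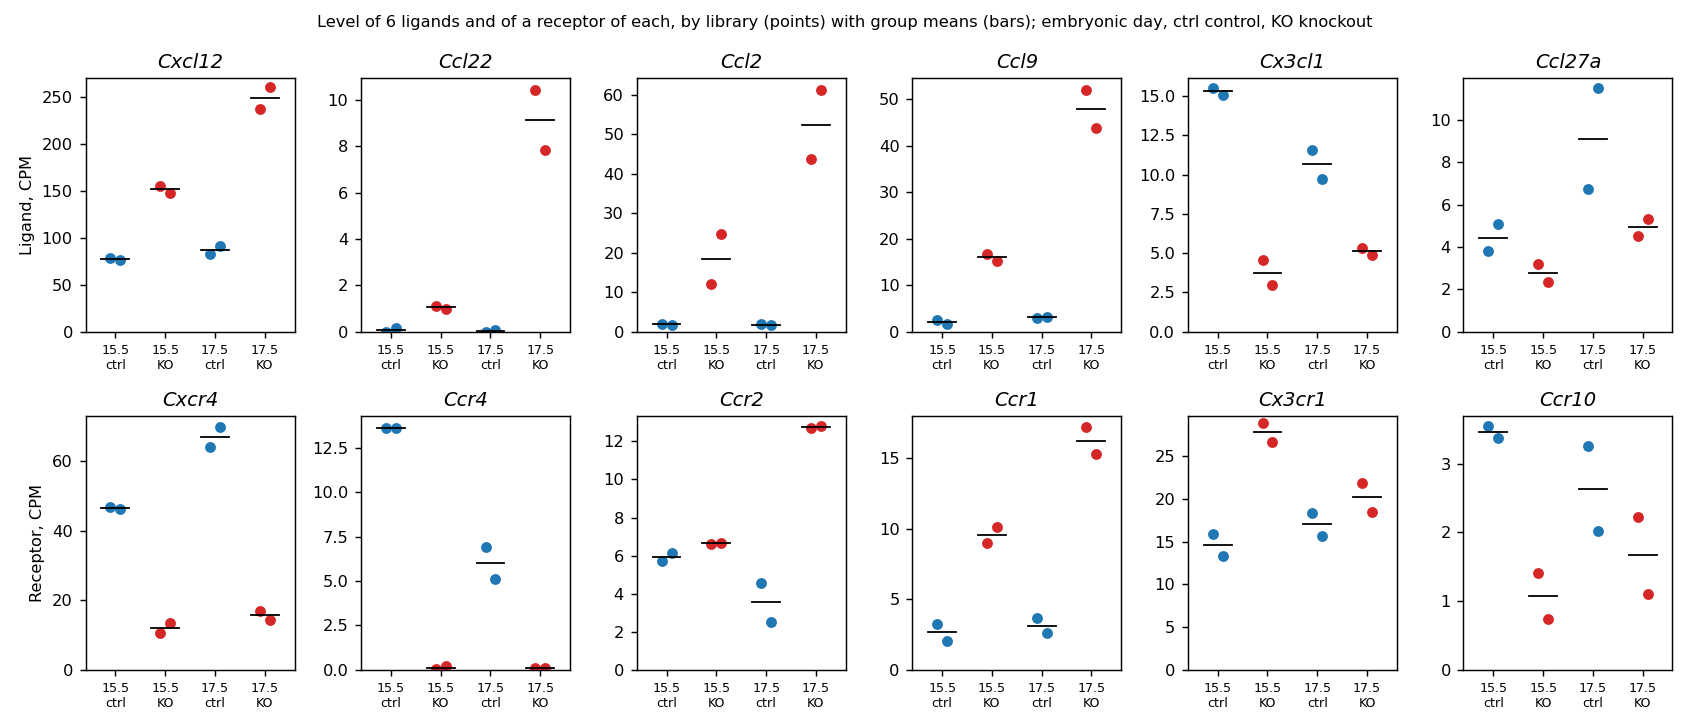
Level in CPM (y axis, linear, starting at 0, with a scale of its own in each panel) of 6 ligands (top row) and of a receptor of each (bottom row) in the 4 groups (x axis; control in blue, knockout in red). Points are libraries and bars are the means of 2 libraries. Cxcl12 and Ccl22 are higher in the knockout where Cxcr4 and Ccr4 are lower, and Ccl9 and Ccr1 are both higher.

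Whether the knockout effect differed between the stages was tested directly. Of 49 members 3 passed, all with a larger value at E17.5, where 4.35% of all genes were called, 1.88% with a larger and 2.47% with a smaller value at E17.5 (0.869% and 4.01% with library totals as the only scaling, where 2 members had a larger value and 1 a smaller). Ccl6 differed by 3.11 ± 0.27 on the log2 scale (adjusted p = 1.3e-04), which is its change from a fall to a rise. Ccr2 differed by 1.69 ± 0.34 (adjusted p = 0.017) and Cxcl12 by 0.55 ± 0.14 (adjusted p = 0.048). The Ccr2 call ended without E15.5 control library 2 (adjusted p = 0.064), E15.5 knockout library 2 (0.064) or E17.5 knockout library 1 (0.054), and the Cxcl12 call without any 1 of the 8 libraries (0.059 to 0.20). For Ccl22, Ccl2 and Cxcl5 the difference did not pass (adjusted p = 0.16, 0.092 and 0.10).

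From E15.5 to E17.5 in the controls, the share of these genes called lay near that of all genes. Of the 49 tested, 3 ligands and 1 receptor rose and 1 ligand and 1 receptor fell. These 6 are 12.2%, where 10.9% of all genes were called, 3.15% as risen and 7.7% as fallen. With library totals as the only scaling the balance over all genes was the reverse, 9.09% risen and 4.66% fallen, and 5 ligands rose and 1 fell. Cxcl13 rose by 3.73 ± 0.58 (adjusted p = 0.0020; 4.70 without E15.5 control library 2), Ccl27a by 1.04 ± 0.28 (adjusted p = 0.036), Cxcr4 by 0.53 ± 0.13 (adjusted p = 0.021) and Cxcl1, from 0 counts at E15.5, also passed (adjusted p = 0.047). Ccl6 fell by 1.08 ± 0.19 (adjusted p = 0.0038) and Ccr4 fell by 1.18 ± 0.25 (adjusted p = 0.010). Of these 6, only Cxcl13 passed without each library in turn, and the Cxcl1 call also ended with limma-voom (adjusted p = 0.095) and a stricter filter (0.0502).

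Between the same days in the knockout, 14 members rose and 5 fell, where 13.1% of all genes were called, 6.19% as risen and 6.91% as fallen. Those that rose were 11 ligands, among them Cxcl1 (4.17 ± 0.42, adjusted p = 7.9e-05), Ccl22 (3.12 ± 0.40, adjusted p = 3.2e-04), Ccl6 (2.04 ± 0.19, adjusted p = 2.9e-05), Ccl9 (1.58 ± 0.16, adjusted p = 5.2e-05) and Ccl2 (1.51 ± 0.27, adjusted p = 0.0030; 2.12 without E15.5 knockout library 2), and 3 receptors, Ccr1 and Ccr2 among them. The calls of Ccr1 and Ccr2 each ended without any 1 of the 4 knockout libraries (adjusted p from 0.09 to 0.22 and from 0.081 to 0.11). The 4 Ccl21 copies and Cxcl14 fell, Ccl21a by 0.50 ± 0.13 (adjusted p = 0.024). With Ccl21a alone standing for the copies, 11 of 31 ligands rose and 2 fell. Of the 19 calls 9 held without each library in turn.

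Many chemokine genes sit in clusters that arose by duplication. With gaps of up to 500000 bases joined, 40 of the 55 members placed on GRCm38 fell into 10 clusters. Over all genes, 23.2% rose at E15.5 and 26.7% at E17.5. In the cluster on chromosome 11 from 82035577 to 82179812, which holds Ccl2, Ccl7, Ccl11, Ccl12, Ccl8 and Ccl1, 4 of 5 genes tested rose at E15.5 and 5 of 5 at E17.5. Another cluster on chromosome 11, from 83525778 to 83664683, holds Ccl5, Ccl9, Ccl6, Ccl3 and Ccl4, of which 3 rose and Ccl6 fell at E15.5 and 5 rose at E17.5. Cxcl9, Cxcl10 and Cxcl11 on chromosome 5 (92321331 to 92363296) rose at both stages, as 3 of 3. Neighbours did not always move alike: on chromosome 8 from 94745684 to 94812038 Cx3cl1 lies between Ccl22 and Ccl17, and it fell at both stages while they rose. In the receptor cluster on chromosome 9 that holds Ccr1, Ccr2 and Ccr3, 2 of 6 genes tested rose at E15.5 and 4 of 6 at E17.5, and none fell. Ccr4 lies on the same chromosome outside that cluster.

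Chemokines and receptors outside the naming rule, listed as neighbours of the pathway, rose more often than they fell. Of 20 listed, 18 were tested, of which 8 rose and 3 fell at E15.5 and 11 rose and 3 fell at E17.5, with median log2 changes of 0.43 and 0.66. Over all genes 45.5% and 53.5% were called. Pf4, a platelet and macrophage chemokine, rose by 1.09 and 1.80, and Cmklr1, the chemerin receptor of macrophages, by 1.41 and 1.46. Ackr4, a scavenger of Ccl21 and Ccl19, fell (-2.35 and -2.62), while Ackr3, a scavenger of Cxcl12, rose by 0.46 (adjusted p = 0.023) and 0.62 (adjusted p = 0.0034).

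Signalling genes behind the receptors were tested in 30 of 30 cases. At E15.5 19 rose and 3 fell, and at E17.5 17 rose and 3 fell, with medians of 0.57 and 0.60, beside 23.2% and 26.7% of all genes risen. With library totals as the only scaling, 14 rose and 6 fell at E17.5. Dock2, which drives leukocyte migration, rose by 1.15 and 1.80, the haematopoietic GTPase Rac2 by 0.96 and 1.21 and Prex1 by 1.25 and 0.93, while Plcb3 fell (-0.89 and -0.67). Of 19 proteases and heparan sulfate carriers that cut or hold chemokines, 8 rose and 4 fell at E15.5 and 11 rose and 2 fell at E17.5, where 45.5% and 53.5% of all genes were called (10 rose and 4 fell at E17.5 with library totals as the only scaling). Sdc1, the main heparan sulfate carrier of keratinocytes, fell (-1.60 and -1.70), while Sdc3 rose by 1.09 and 1.55 and Mmp2, which cuts Cxcl12 and Ccl7, by 1.22 and 1.57. Dpp4, which trims Cxcl12, rose by 0.60 and 1.02.

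Genes of the NF-kappaB and interferon pathways, which switch on inflammatory chemokines, rose in 10 of 22 cases at E15.5 and 16 of 22 at E17.5, and 1, Il1a, fell at both stages (log2 -3.06 and -3.43). At E15.5 the share called lay near the 45.5% of all genes, and at E17.5 53.5% of all genes were called. The median log2 change of this list was 0.33 and 0.95. Nfkb2 rose by 0.64 and 1.46, Tnfaip3, a feedback inhibitor, by 0.35 and 1.25, Il1r1 by 0.80 and 1.30 and Irf7 by 1.35 and 2.44. Il17a was at 0 in every library.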

How the data were processed

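Each of the 8 libraries has a file of raw read counts per RefSeq transcript, deposited without normalization. Per the submitters' processing notes, the authors aligned reads to mm10 with TopHat2, counted them with HOMER and used edgeR. Not given in the sources used here are the strand setting, the treatment of reads with several matches and whether introns were counted. Of 30521 transcripts 29908 were named with the RefSeq table of GRCm38.p6 and 182 with GENCODE M21. The 431 without a name held 2.08% of counts and were left out. For the 4170 genes with several rows, all but the row with the most counts were left out too.

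Tests used edgeR 4.0.16 in R 4.3.3: filterByExpr over the 4 groups (16342 genes kept), TMM scaling and a quasi-likelihood fit with 1 mean per group over all 8 libraries, with no replicate block. Benjamini-Hochberg adjustment covered all genes tested, and the threshold was 0.05. The SE was derived from the log2 fold change and its F statistic (size of the change over the root of F). CPM uses TMM-scaled totals, and CPM per kilobase uses the spliced GENCODE M21 length. Where a group had 3 counts or fewer, counts are given as a ratio with an exact 95% interval, or as a bound from 3 counts where it had 0. No exact permutation test was used, because 2 libraries against 2 allow p = 0.333 at best. The procedure was tested on simulated data. In these far fewer genes changed than were called here, as many up as down, so they are no check of the scaling.

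Members and lists were chosen with earlier results of these data known. Values in every library are given for members called in a knockout comparison with a mean of at least 1 CPM and for 12 members listed whatever their test, such as Ccl20 and Ccr6, and up to 4 called genes were named per list; Cxcl13, Ccl3, Ccl8, Ccr7 and Cxcr2 were given in addition, after their values were seen, as were Ackr3 and Irf7 from the lists. Alternatives were RLE size factors, library totals as the only scaling, DESeq2 1.42.0, limma-voom (limma 3.58.1), no filter, a stricter filter (1 CPM in 2 libraries), the sum of transcript rows, a replicate block, a fit of only the groups compared, and leaving out each library. Values of some genes that the rule names are not reported here, although counts over the lists include them.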

Additional observations from a re-analysis of the deposited data

Results flagged for a closer look

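The knockout effect differed between E17.5 and E15.5, by an interaction term in edgeR, for 3 genes. The log2 difference was 3.11 ± 0.27 for Ccl6 (adjusted p = 1.3e-04), 1.69 ± 0.34 for Ccr2 (adjusted p = 0.017) and 0.55 ± 0.14 for Cxcl12 (adjusted p = 0.048). Of these, Ccl6 passed under every alternative run, and the Ccr2 and Cxcl12 calls each ended when some of the libraries were left out. Groups of 2 libraries are too small for a test of outlying samples.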

How the results depend on the processing

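Over the member results, 1694 values under the alternatives were computed: 1581 kept their direction and their side of the threshold, 110 kept the direction but no longer passed, 3 newly passed and 0 reversed. Of the 29 members called at E15.5, 21 passed under every alternative, and of the 38 called at E17.5, 31 did. Beside calls ended by leaving out a library, DESeq2 ended Ccl17 at E15.5 (adjusted p = 0.076), Ccl28 at E17.5 (0.11) and Cxcl5 between stages in the knockout (0.26), limma-voom ended Cxcl10 at E15.5 (0.053) and Cxcl1 between stages in the controls (0.095), and testing with no filter ended Ccl17 at E15.5 (0.0502) and Ccl28 at E17.5 (0.062). Summed transcript rows ended Ccl27a between stages in the controls (0.077). The Cxcl1 call between stages in the controls also ended with the stricter filter (0.0502). The Cxcl12 difference between stages was 0.34 (adjusted p = 0.21) with library totals as the only scaling, and that call also ended with no filter (0.06) and with summed rows (0.11). Over all genes, library totals as the only scaling gave 3295 risen and 6284 fallen at E17.5 (4371 and 4364 with TMM), 1486 and 762 between stages in the controls (515 and 1259), and 142 larger and 655 smaller for the difference between stages (308 and 403). The cause was not tested.

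Counts of members called for the difference between stages moved most: ligands went from 2 to 1 with library totals as the only scaling and with the sum of transcript rows, to 7 with DESeq2, and to 1 to 4 without 1 library, while receptors went from 1 to 2 with library totals and to 0 to 2 without 1 library, and all genes from 711 to between 377 and 716. Between stages in the controls, leaving out 1 library gave 666 to 1776 genes, 1 to 4 ligands and 0 to 3 receptors. In the knockout it gave 1160 to 2256 genes and 1 to 4 receptors, and the fit of only the groups compared gave 5 receptors. The knockout comparisons ranged from 17 to 23 ligands and 5 to 8 receptors at E15.5 and from 25 to 29 and 7 to 9 at E17.5 without 1 library.

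Deviations of same-numbered libraries correlated between -0.07 and 0.043 over 16342 genes. No shared deviation was seen, which does not settle whether the numbers pair the libraries. With a replicate block, 22 ligands and 7 receptors were called at E15.5 and 29 and 9 at E17.5, as without it. The block ended the Cxcl12 difference between stages (adjusted p = 0.054) and the Cxcl1 rise between stages in the controls (0.058).

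Low counts limit what can be said of Ccl4, Ccl5, Ccl17, Ccl28, Cxcl2 and Ccr3. Even counts were more frequent than odd ones (570 to 634 genes with 2 counts per library, 399 to 446 with 1 count), while counting intervals take counts as independent.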
